A study of Mus musculus with 7 samples.

Results

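The vascular endothelial growth factor (VEGF) genes described here were 5 ligands (Vegfa, Vegfb, Vegfc, Vegfd and Pgf), 3 receptor tyrosine kinases (Flt1, Kdr and Flt4) and the 2 neuropilin co-receptors (Nrp1 and Nrp2). They were chosen by name as members of the family, 10 genes of the 56980 in the table, with earlier results of these data known. Heart tissue RNA was sequenced from 7 wild-type (WT) male C57BL/6J mice, 1 library per mouse. The 3 MI mice were killed 4 days after their left coronary artery was tied off, and the 4 sham-operated mice had the same surgery without the ligature. All mice were obtained at 8 weeks of age and acclimated for 1 week. The labels name only myocardial tissue, which the study describes as ischemic in the MI mice, and how much infarct or border muscle each sample held is not given in the sources used here.

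VEGF ligands are secreted dimers that bind receptor tyrosine kinases on endothelial cells. VEGF-A acts mainly through VEGF receptor 2, encoded by Kdr, to drive endothelial growth, migration and leakiness, and it is known as the chief angiogenic factor of hypoxic heart muscle. VEGF-B and placental growth factor bind VEGF receptor 1, encoded by Flt1, which holds VEGF-A tightly and signals weakly. VEGF-C and VEGF-D bind VEGF receptor 3, encoded by Flt4, the main receptor of lymphatic endothelium, and VEGF-C also reaches Kdr after proteolytic maturation. Neuropilins present ligands to these receptors and also bind class 3 semaphorins.

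The promoters of 3 genes are shown because Vegfa and Kdr were lower, and Vegfd higher, in every MI mouse than in every sham-operated mouse. Pgf also lay higher in every MI mouse, but its RefSeq windows lie inside the gene as GENCODE M21 places it and are not printed. The sequences come from the RefSeq promoter table for GRCm38.p6, read 5′ to 3′ along the strand of the gene, and stop before the gene start given by GENCODE M21. Capitals mark the hypoxia response core, ACGTG or GCGTG on either strand, to which HIF factors bind. The Vegfa sequence is chr17:46032378-46032627 on the minus strand, the Vegfd sequence chrX:164373272-164373377 on the plus strand and the Kdr sequence chr5:75978459-75978705 on the minus strand.
Vegfa: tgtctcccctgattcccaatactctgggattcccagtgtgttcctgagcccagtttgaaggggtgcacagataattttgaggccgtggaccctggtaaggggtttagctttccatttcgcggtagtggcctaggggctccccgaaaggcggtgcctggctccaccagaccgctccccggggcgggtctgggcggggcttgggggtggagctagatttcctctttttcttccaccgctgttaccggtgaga
Vegfd: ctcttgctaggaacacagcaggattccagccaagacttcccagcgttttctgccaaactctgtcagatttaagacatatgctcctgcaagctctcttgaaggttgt
Kdr: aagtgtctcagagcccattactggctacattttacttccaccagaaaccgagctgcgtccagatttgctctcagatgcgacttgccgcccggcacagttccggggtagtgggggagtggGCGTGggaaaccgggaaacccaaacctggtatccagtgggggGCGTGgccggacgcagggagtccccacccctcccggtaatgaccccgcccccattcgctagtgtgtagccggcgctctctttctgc

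In the full windows of 250 bases before the RefSeq start, Kdr held 2 such cores, 131 and 89 bases upstream, whereas the first Vegfa window and the Vegfd window held none. A second Vegfa window, before a start inside the gene, held 2 cores, 218 and 211 bases upstream. A core was found in the first window of 6 of the 10 genes (Vegfb, Pgf, Flt1, Kdr, Nrp1 and Nrp2) and in 38.6% of the 32851 windows of all genes. The Vegfd window also differed in base composition, with 42.4% G and C against a median of 52.4% over all windows. The windows of Vegfa, Vegfb, Vegfc, Kdr and Flt4 held between 59.2% and 76.4%. A letter match describes these windows only and says nothing about binding in these hearts.

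Expression was measured as FPKM (fragments scaled to gene length and to the fragments of each library), a level per length. The lengths implied by the values exceeded the exon lengths of GENCODE M21 for all 10 genes, from 8659 against 8232 bases for Flt4 to 7414 against 4285 for Vegfa, so levels and shares between genes depend on the lengths used by the authors. The steps in the FPKM values gave depths of 19977716 to 23610870 fragments per mouse. MI replicate 2 stood apart from the other MI mice. Its mitochondrially encoded genes took 28.2% of the depth, near the 26.5% to 27.4% of sham-operated mice, against 13.6% and 14.9% in MI replicates 1 and 3. The 10 cardiomyocyte markers summed to 10539 FPKM in MI replicate 2, to 5557 and 6495 in MI replicates 1 and 3, and to between 10577 and 10960 in sham-operated mice. For 9 fibroblast markers the sums were 281 FPKM, then 2659 and 2091, and 156 to 185. Results that leaving out a mouse changed most are also given without it.

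Differences between MI and sham-operated mice were tested with limma on log2(FPKM + 1) over the 11431 genes that reached an FPKM of 1 in 3 or more mice, a filter that all 10 VEGF genes passed. At a Benjamini-Hochberg adjusted p under 0.05, limma called none of the 10, beside 3 genes (0.0262%) of all those tested. At an unadjusted p under 0.05, 4 of the 10 differed, beside 39.3% of all genes. They were 2 that were higher in MI (Vegfd and Flt4), beside 29.5% of all genes, and 2 that were lower (Vegfa and Vegfb), beside 9.85%. In 2 of the 10 genes every MI mouse lay above every sham-operated mouse (Vegfd and Pgf), beside 16.1% of all genes. In 2 of the 10 every MI mouse lay below (Vegfa and Kdr), beside 9%. Without MI replicate 2, limma called Vegfc, Vegfd, Flt4 and Nrp2 higher and Vegfa and Vegfb lower at the adjusted threshold, in a comparison where 8195 of all genes passed. The median log2 fold change of all genes tested was 0.21, and the change of each VEGF gene is also given relative to that median. In tissue RNA, fewer cells of a type and less RNA per cell cannot be told apart.

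**Figure D1:**
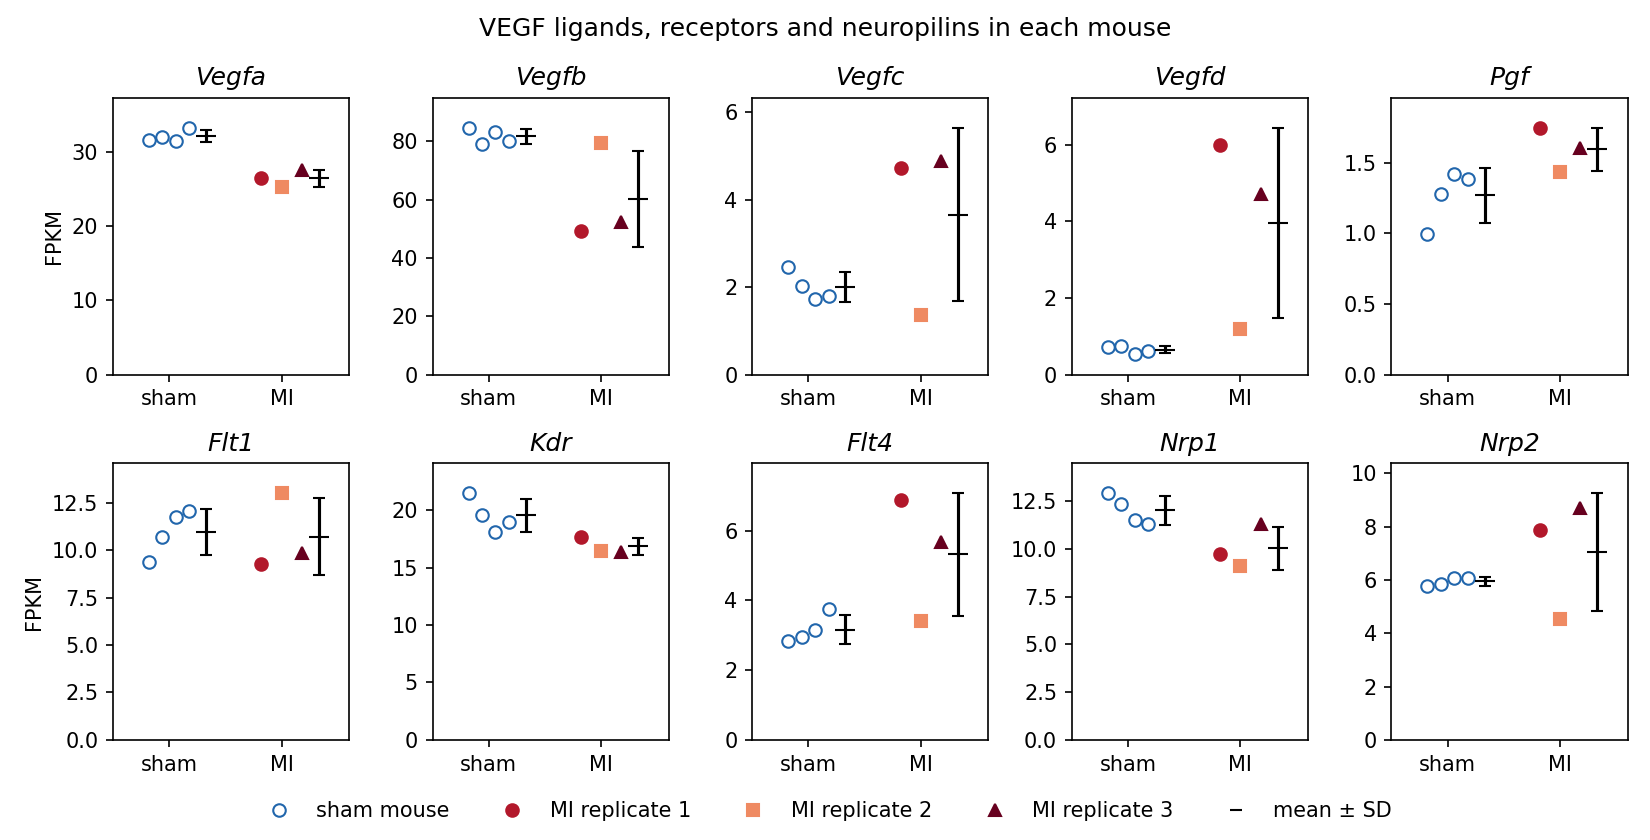
FPKM (vertical axes, from 0, with a scale for each gene) of the 10 VEGF genes in 4 sham-operated mice (open circles) and 3 MI mice (a filled symbol for each mouse), with mean ± SD bars beside the points. Vegfa and Kdr were lower and Vegfd and Pgf higher in every MI mouse, and MI replicate 2 lay apart from the other MI mice for Vegfb, Vegfc, Vegfd, Flt1, Flt4 and Nrp2.

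Vegfb and Vegfa were the most abundant of the VEGF genes in both groups. Vegfa (ENSMUSG00000023951, chr17:46016993-46032369, minus strand) was at 31.6, 32.1, 31.5 and 33.3 FPKM in the sham-operated mice and at 26.5, 25.3 and 27.6 in the MI mice, from at least 4239 fragments in each. The groups did not overlap, and all 3 MI mice were close to each other. The mean was 32.1 ± 0.802 FPKM (SD, n = 4) in sham-operated and 26.5 ± 1.16 (SD, n = 3) in MI mice, a ratio of 0.824. Its log2 fold change was -0.27 (SE 0.085; limma adjusted p = 0.108), or -0.48 relative to the median of all genes. An exact two-sided permutation test over the 35 splits of the mice gave p = 0.0571, the smallest value this design allows. Vegfa was the only ligand that was below all sham-operated mice in all 3 MI mice, and MI replicate 2 was the lowest. This holds for the deposited values: under TPM, and without sham replicate 2, Vegfb lay below in every MI mouse, and under TPM Vegfa did not.

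Vegfb (ENSMUSG00000024962, chr19:6982473-6987651, minus strand) is a ligand made largely by cardiomyocytes. It was at 84.7, 79.3, 83.1 and 80.2 FPKM in sham-operated mice and at 49.3, 79.3 and 52.4 in MI mice. MI replicate 2 lay within the sham range, and the other MI mice were far below it. The group means were 81.8 ± 2.54 (SD, n = 4) and 60.4 ± 16.5 FPKM (SD, n = 3), with a log2 fold change of -0.46 (SE 0.17; limma adjusted p = 0.110), or -0.67 relative to the median of all genes. Without MI replicate 2 the change was -0.68 (adjusted p = 7.18e-05). Leaving out any other mouse took the unadjusted p of Vegfb above 0.05, with changes of -0.34 and -0.38 without MI replicate 1 or 3 and of -0.45 to -0.48 without a sham-operated mouse. The summed cardiomyocyte markers varied over the MI mice in the same order, although Mybpc3 alone was highest in MI replicate 3, and Vegfb is set against them within each mouse after the receptors.

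The lymphangiogenic ligands were low in sham-operated hearts. Vegfd (ENSMUSG00000031380, chrX:164373378-164402650, plus strand) was at 0.722, 0.747, 0.549 and 0.608 FPKM in sham-operated mice, from 33 to 44 fragments. In MI mice it was at 5.98, 1.19 and 4.71 FPKM, from 73 to 354 fragments. All MI mice exceeded all sham-operated mice, MI replicate 2 by the smallest margin. The ratio of the group means was 6.03, and the log2 fold change, which the added 1 FPKM makes smaller at such levels, was 1.42 (SE 0.37; limma p = 0.00545, adjusted p = 0.108; exact p = 0.0571). Relative to the median of all genes the change was 1.21, and 2.48% of the genes tested had a higher log2 fold change. Without MI replicate 2 the log2 fold change of Vegfd was 1.93 (adjusted p = 1.07e-05). In all 7 mice it was 2.16 with 0.1 FPKM added in place of 1, 2.29 with voom weights and 1.22 under quantile normalization.

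Vegfc (ENSMUSG00000031520, chr8:54077606-54187096, plus strand), the other ligand of VEGF receptor 3, was at 2.47, 2.03, 1.73 and 1.79 FPKM in sham-operated mice and at 4.73, 1.37 and 4.88 in MI mice. MI replicates 1 and 3 were the highest of the 7 mice and MI replicate 2 the lowest. The log2 fold change was 0.53 (SE 0.32; limma adjusted p = 0.223), or 0.32 relative to the median of all genes. It was 0.96 without MI replicate 2 (adjusted p = 0.000201), and 0.32 and 0.30 without MI replicate 1 or 3. Quantile normalization gave 0.24, median log-ratio scaling 0.31 and TPM 0.78. Vegfc was the higher of the pair in all 4 sham-operated mice. In MI replicate 1 Vegfd was the higher, at 5.98 against 4.73 FPKM, and in MI replicates 2 and 3 the levels were 1.19 against 1.37 and 4.71 against 4.88. The within-mouse log2 difference, Vegfd minus Vegfc, ran from -1.01 to -0.79 in sham-operated mice and was 0.28, -0.11 and -0.042 in MI mice. The groups did not overlap for this difference (MI minus sham 0.90; exact permutation p = 0.0571, adjusted over 13 such differences 0.124), and it was 1.502 with 0.1 FPKM added in place of 1.

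Placental growth factor, Pgf (ENSMUSG00000004791, chr12:85166635-85177790, minus strand), was at 0.992, 1.28, 1.42 and 1.39 FPKM in sham-operated mice and at 1.75, 1.44 and 1.601 in MI mice. All MI mice again exceeded all sham-operated mice, but the lowest MI mouse exceeded the highest sham-operated mouse by less than the SD of either group. The separation was lost under TPM, with mitochondrial genes left out and under median log-ratio scaling. The log2 fold change was 0.20 (SE 0.10; limma adjusted p = 0.175) and -0.014 relative to the median of all genes. Pgf was also compared within each mouse with Vegfa, which shares its receptor Flt1. Pgf minus Vegfa ran from -4.03 to -3.75 on the log2 scale in sham-operated mice and from -3.46 to -3.33 in MI mice (MI minus sham 0.47; exact permutation p = 0.0571, adjusted 0.124).

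The makeup of the ligand pool differed accordingly between mice. The 5 ligands summed to 115 to 121 FPKM in sham-operated mice and to 88.3, 109 and 91.2 FPKM in MI mice. Vegfb made up 69.4% ± 1.00 (SD, n = 4) of the sum in sham-operated mice and 55.9%, 73.1% and 57.5% in MI mice. Vegfd contributed 0.557% ± 0.0818 (SD, n = 4) in the sham group and 6.77%, 1.09% and 5.16% in MI mice. Vegfa held a steadier share, 26.2% to 28.4% in sham-operated mice and 30.04%, 23.3% and 30.2% in MI mice. Vegfa minus Vegfb within each mouse was -1.39 to -1.24 on the log2 scale in sham-operated mice and -0.87, -1.61 and -0.90 in MI mice, with overlapping groups (MI minus sham 0.19; exact permutation p = 0.286, adjusted 0.338). That difference was 0.065, 0.44 and 0.080 without MI replicate 1, 2 or 3. The shares are of RNA levels per length and not of protein.

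**Figure D2:**
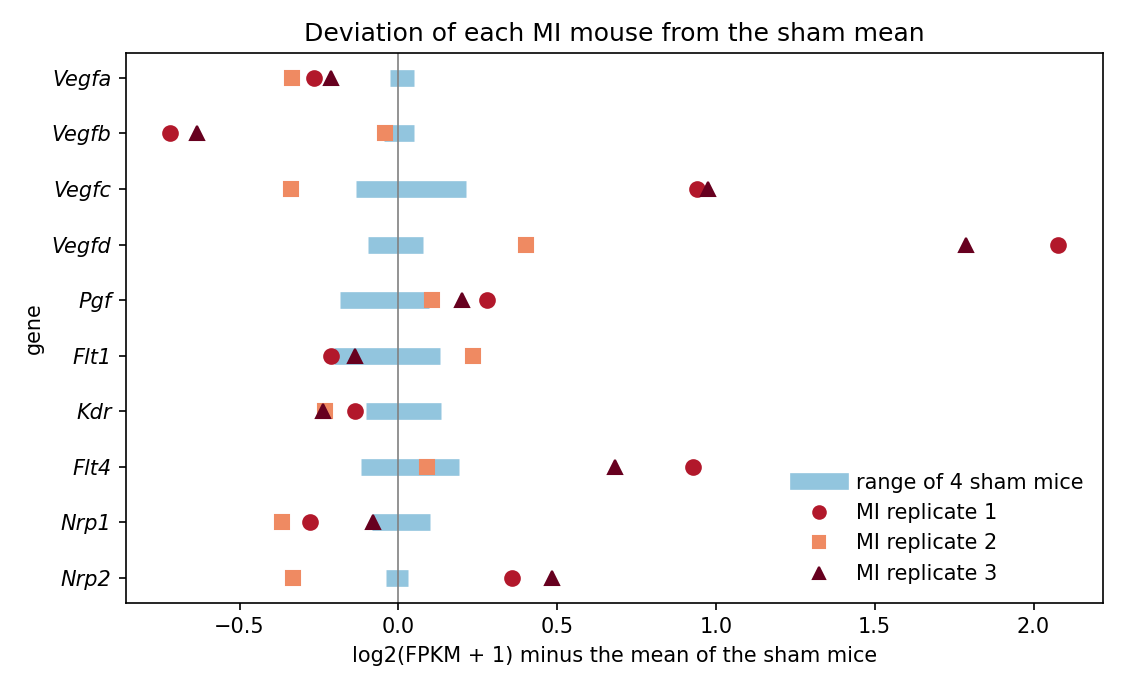
Deviation of each MI mouse from the sham mean, in log2(FPKM + 1) (horizontal axis), for the 10 VEGF genes (vertical axis), with the range of the 4 sham-operated mice as a bar. MI replicates 1 and 3 lay on the same side of 0 for all 10 genes, and MI replicate 2 lay on the other side for Vegfc, Flt1 and Nrp2.

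Among the receptors, Kdr was the most abundant in both groups. Kdr (ENSMUSG00000062960, chr5:75932827-75978458, minus strand) was at 21.5, 19.5, 18.1 and 19.0 FPKM in sham-operated mice and at 17.7, 16.5 and 16.4 in MI mice, from at least 3598 fragments. The groups did not overlap, although the gap between 17.7 and 18.1 FPKM was smaller than the spread within either group. The log2 fold change was -0.20 (SE 0.094; limma p = 0.0681, adjusted p = 0.145; exact p = 0.0571), and -0.41 relative to the median of all genes. Without MI replicate 2 it was -0.19 (adjusted p = 0.0685).

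Flt1 (ENSMUSG00000029648, chr5:147561604-147726011, minus strand) was at 9.36, 10.7, 11.8 and 12.1 FPKM in sham-operated mice and at 9.29, 13.02 and 9.84 in MI mice. The groups overlapped fully, with the lowest and the highest of the 7 values both in MI mice. The log2 fold change was -0.039 (SE 0.14; limma adjusted p = 0.840), or -0.25 relative to the median of all genes, and it took the other sign, 0.15, when each mouse was rescaled to the same total (TPM).

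Flt4 (ENSMUSG00000020357, chr11:49609263-49652739, plus strand) was at 2.83, 2.95, 3.14 and 3.74 FPKM in sham-operated mice and at 6.89, 3.41 and 5.66 in MI mice. MI replicates 1 and 3 were above all sham-operated mice, and MI replicate 2 lay within their range. The means were 3.16 ± 0.405 (SD, n = 4) and 5.32 ± 1.76 FPKM (SD, n = 3), with a log2 fold change of 0.57 (SE 0.20; limma adjusted p = 0.109), or 0.36 relative to the median of all genes. Without MI replicate 2 the change was 0.80 (adjusted p = 0.000552). It was 0.39 and 0.51 without MI replicate 1 or 3 and 0.53 and 0.54 without sham replicate 1 or 2, and in these 4 fits the unadjusted p was above 0.05. Quantile normalization gave 0.29 and median log-ratio scaling 0.34. Flt4 shares its rank order over the MI mice with the summed markers of lymphatic endothelium, and also with the fibroblast, macrophage and neutrophil sums. The lymphatic sum was 34.1 to 43.0 FPKM in sham-operated mice and 113, 50.6 and 87.2 FPKM in MI mice. Within that list Lyve1 and Prox1 did not follow the order. Of the 6 lymphatic markers, 4 lay higher in every MI mouse (Pdpn, Ccl21a, Mmrn1 and Reln, the last of them under the filter), while Prox1 lay lower in every MI mouse. Prox1 was at 5.13 to 6.02 FPKM in sham-operated mice and at 2.97, 4.66 and 3.17 in MI mice. Among the MI mice it was highest in MI replicate 2, as the cardiomyocyte sum was. Which cells its RNA came from was not tested.

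In the deposited FPKM the 3 receptors together held nearly the same level in both groups. Their sum was 32.998 to 34.8 FPKM in sham-operated mice and 33.8, 32.9 and 31.9 FPKM in MI mice. FPKM totals were lower in MI replicates 1 and 3 than in sham-operated mice, and the receptor sum was not compared under other scalings. Within that sum Kdr made up 54.6% to 63.8% in sham-operated mice and 52.2%, 50.1% and 51.4% in MI mice, ranges that did not overlap. Flt4 contributed 9.38% ± 1.02 (SD, n = 4) in the sham group and 20.4%, 10.4% and 17.8% in MI mice. Flt4 minus Kdr within each mouse was higher in every MI mouse (MI minus sham 0.77 on the log2 scale; exact permutation p = 0.0571, adjusted 0.124), whereas Flt1 minus Kdr overlapped (0.16; p = 0.514 by the exact permutation test, adjusted 0.514). The latter was 0.012 without MI replicate 2, 0.28 without MI replicate 1 and 0.050 without sham replicate 1.

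Nrp1 (ENSMUSG00000025810, chr8:128358604-128503363, plus strand), the co-receptor of arterial endothelium that binds VEGF-A, was at 12.9, 12.3, 11.5 and 11.3 FPKM in sham-operated mice and at 9.72, 9.08 and 11.3 in MI mice. MI replicate 3 and the lowest sham-operated mouse were level, and the other MI mice were below the sham range. The log2 fold change was -0.24 (SE 0.10; limma adjusted p = 0.128), or -0.45 relative to the median of all genes. The annotation places 80 bases of the microRNA gene Mir1903 in an exon of Nrp1 on the same strand.

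Nrp2 (ENSMUSG00000025969, chr1:62703285-62818695, plus strand), the co-receptor of venous and lymphatic endothelium that binds VEGF-C, was at 5.76, 5.86, 6.09 and 6.06 FPKM in sham-operated mice, a narrow range. In MI mice it was at 7.89, 4.52 and 8.71 FPKM, with no MI mouse inside the sham range and MI replicate 2 on its lower side. The log2 fold change was 0.17 (SE 0.19; limma adjusted p = 0.492), or -0.039 relative to the median of all genes. It was 0.42 without MI replicate 2 (adjusted p = 0.000758), 0.077 and 0.013 without MI replicate 1 or 3, and -0.10 after quantile normalization. Nrp2 made up 33.1% ± 1.97 (SD, n = 4) of the neuropilin sum in sham-operated mice and 44.8%, 33.2% and 43.6% in MI mice. Nrp2 minus Nrp1 within each mouse overlapped between the groups (MI minus sham 0.41 on the log2 scale; exact permutation p = 0.171, adjusted 0.279).

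Ordered by level, sham-operated hearts held Vegfb, Vegfa, Kdr, Nrp1, Flt1, Nrp2, Flt4, Vegfc, Pgf and Vegfd, and only Nrp1 and Flt1 overlapped with their neighbour in that order. In MI hearts the first 3 places were unchanged, Flt1 and Nrp1 overlapped, and from Nrp2 down through Flt4, Vegfd, Vegfc and Pgf each gene overlapped with the next. Vegfd had the lowest mean level in sham-operated mice, 0.656 ± 0.0938 FPKM (SD, n = 4), and a mean of 3.96 ± 2.48 (SD, n = 3) in MI mice.

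**Figure D3:**
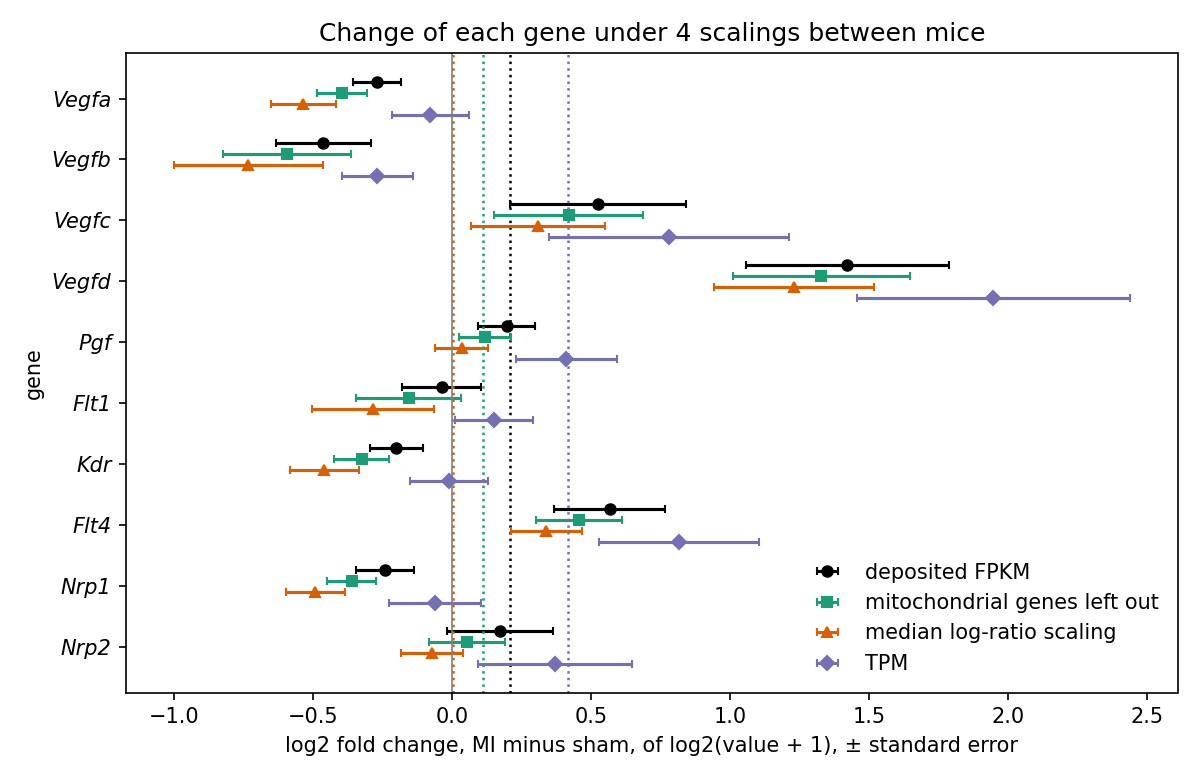
Log2 fold change of MI over sham-operated mice ± standard error (horizontal axis) for the 10 VEGF genes (vertical axis) under the deposited FPKM and 3 other scalings between mice, with the median of all genes under each scaling as a dotted line of the same color. Vegfa, Vegfb, Kdr and Nrp1 lay below 0 and Vegfc, Vegfd, Pgf and Flt4 above 0 under all 4 scalings, whereas Flt1 and Nrp2 changed sign.

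FPKM totals ran from 463838 to 476593 in sham-operated mice and were 378221, 475030 and 386335 in MI mice, so the choice of scaling between mice was examined. The median log2 fold change of all genes was 0.42 under TPM, 0.11 with mitochondrially encoded genes left out and 0.0036 under median log-ratio scaling. The count of VEGF genes lower in MI at an unadjusted limma p under 0.05, 2 with the deposited values, was 0 under TPM, beside 4.9% of all genes. It was 4 (Vegfa, Vegfb, Kdr and Nrp1) with mitochondrial genes left out, beside 12.9%, and under median log-ratio scaling, beside 19.6%. Those higher were Vegfd and Flt4 under all of these, beside 36.2%, 27.6% and 19% of all genes in the same order. The groups did not overlap for Kdr and Vegfa under any of these scalings except TPM, where Vegfb was the gene with every MI mouse below. Nrp1 also lay below in every MI mouse with mitochondrial genes left out and under median log-ratio scaling. Under TPM the log2 fold changes of Vegfa, Kdr and Nrp1 were smaller than their standard errors.

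Differences within a mouse do not depend on a common scaling factor, apart from the added 1 FPKM, and were used to set receptors and ligands against markers of the cells known to make them. The 12 endothelial markers, all above the filter, summed to 177 to 201 FPKM in sham-operated mice and to 245, 174 and 266 FPKM in MI mice, and 1 of them (Ecscr) lay higher in every MI mouse. Kdr minus the mean of these markers was 0.70 to 0.84 on the log2 scale in sham-operated mice and 0.17, 0.60 and -0.0059 in MI mice. Kdr was therefore lower relative to the endothelial markers in every MI mouse (MI minus sham -0.53; exact permutation p = 0.0571, adjusted 0.124). Nrp1 minus the same markers was also lower in every MI mouse (-0.57; exact permutation p = 0.0571, adjusted 0.124). For Flt1 the difference was lower in MI replicates 1 and 3 and higher in MI replicate 2 than in all sham-operated mice (-0.37; exact permutation p = 0.286, adjusted 0.338), and the value was -0.21, -0.69 and -0.20 without MI replicate 1, 2 or 3.

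Flt4 was set against the 5 lymphatic markers that passed the filter, which include Prox1. Flt4 minus their mean ran from -0.60 to -0.45 in sham-operated mice and was -0.64, -0.71 and -0.60 in MI mice, and the groups overlapped (MI minus sham -0.13; exact permutation p = 0.114, adjusted 0.212). Under quantile normalization MI minus sham was -0.17 (exact permutation p = 0.0571, the smallest value this design allows). Vegfb minus the cardiomyocyte markers was -2.95 to -2.82 in sham-operated mice and -2.72, -2.90 and -2.82 in MI mice (MI minus sham 0.065; exact permutation p = 0.4, adjusted 0.433), and the groups overlapped, with 0.017, 0.11 and 0.070 without MI replicate 1, 2 or 3. Vegfa minus the cardiomyocyte markers was higher than in all sham-operated mice in MI replicates 1 and 3 and lower in MI replicate 2 (0.26; exact permutation p = 0.286, adjusted 0.338). It was 0.082, 0.54 and 0.15 without MI replicate 1, 2 or 3 and 0.0013 under quantile normalization. Vegfd, known from fibroblasts and mesothelium, was lower relative to the fibroblast markers in every MI mouse (-1.04; exact permutation p = 0.0571, adjusted 0.124) on this scale, where the added 1 FPKM compresses the low Vegfd values of sham-operated mice. With 0.1 FPKM added the difference was -0.42 (exact permutation p = 0.229) and the groups overlapped. Of the fibroblast markers, 8 of 9 were higher in every MI mouse. Their log2 fold changes were uneven, from 1.08 for Pdgfra to 4.10 for Postn. Pdgfra and Tcf21 changed less than Vegfd, at 1.42, and the other fibroblast markers changed more, Dcn and Dpt only slightly. The difference therefore describes Vegfd against the mean of this list, in which Postn and the collagen genes rose most. Vegfd was not tested against single fibroblast markers.

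**Figure D4:**
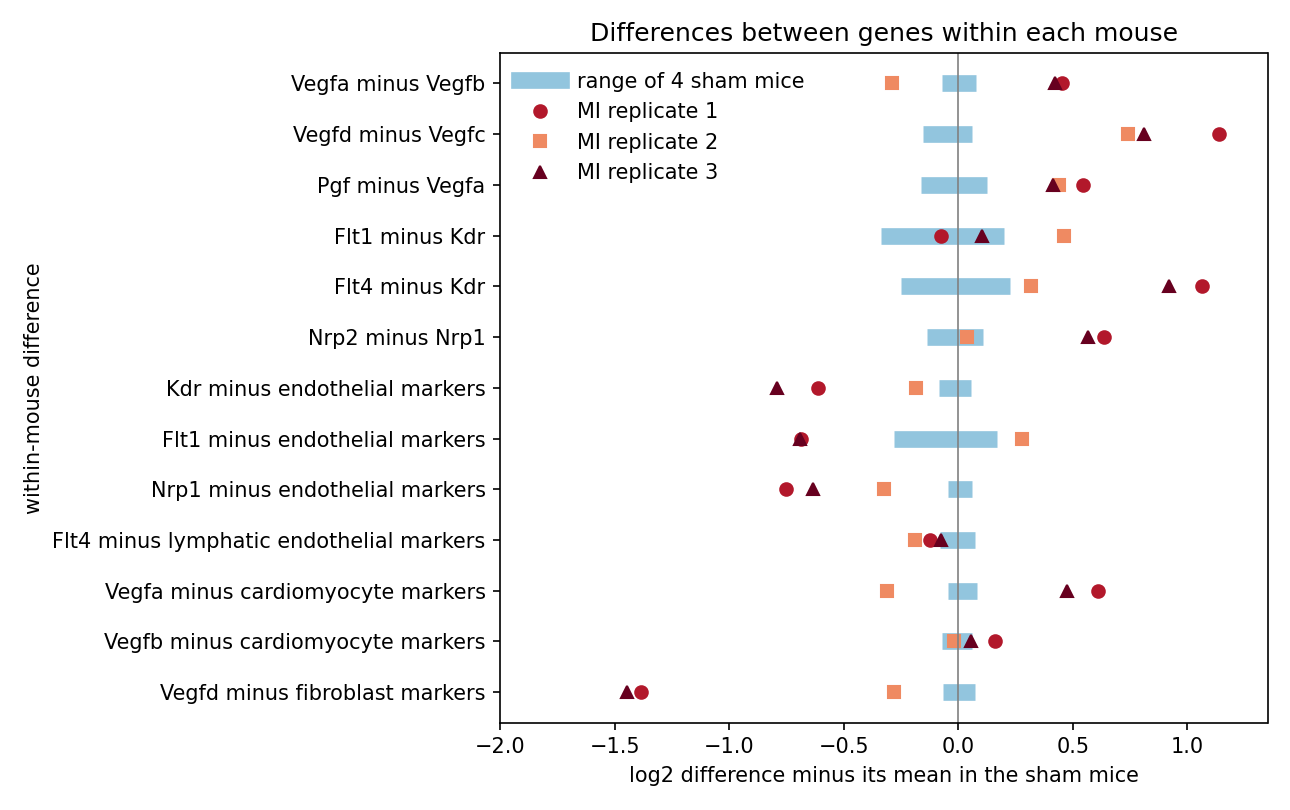
The 13 within-mouse log2 differences between genes, or between a gene and a mean of cell type markers (vertical axis), each shown relative to its mean in the sham-operated mice (horizontal axis), with the sham range as a bar and a symbol for each MI mouse. Vegfd minus Vegfc, Pgf minus Vegfa and Flt4 minus Kdr lay above the bar, and Kdr and Nrp1 minus endothelial markers and Vegfd minus fibroblast markers below it, in all 3 MI mice, although the last of these did not stay apart with 0.1 FPKM added in place of 1.

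Other cell types of the tissue also varied over the MI mice. The 9 macrophage markers summed to 104 to 128 FPKM in sham-operated mice and to 632, 126 and 536 FPKM in MI mice, with 5 of 9 higher in every MI mouse. The 8 mural markers summed to 267 to 306 FPKM and to 363, 266 and 404 FPKM. Of these, 1 (Tagln) was higher and 2 (Kcnj8 and Abcc9) were lower in every MI mouse. For mesothelium, a known source of Vegfd, the sums were 4.16 to 9.69 FPKM and 29.4, 20.9 and 43.5 FPKM, with all 5 markers that passed the filter higher in every MI mouse. Neutrophil markers, none of which passed the filter, summed to 0.3002 to 1.29 FPKM and to 13.8, 0.485 and 7.33 FPKM. No marker was at 0 in every mouse. The part of these cell types in the results for the VEGF genes was not tested.

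Other genes of the pathway were described by 4 lists, in none of which limma called a gene at an adjusted p under 0.05. Of 30 genes of VEGF signalling downstream of the receptors, 25 were tested, 8 were higher and 1 lower in MI at an unadjusted p under 0.05, beside 29.5% and 9.85% of all genes, and the median log2 fold change was 0.23, beside 0.21 for all genes. Rcan1, a calcineurin regulator induced through NFAT, was at 2.16 to 7.78 FPKM in sham-operated mice and at 31.9, 6.51 and 32.9 in MI mice (log2 fold change 1.63, limma adjusted p = 0.112). The heat shock protein gene Hspb1 differed by 0.63 on the log2 scale. At the low end of the list were Mapkapk2, the kinase that phosphorylates that protein, at -0.27 and lower in every MI mouse, and Pik3r1, the regulatory subunit of PI3 kinase, at -0.14.

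Of 16 genes of ligand processing and receptor control, 13 were tested, and 3 (Furin, Plau and Stab1) were higher at an unadjusted p under 0.05, beside 29.5% of all genes, with a list median of 0.25. Furin, a protease that matures VEGF-C and VEGF-D, was higher in every MI mouse. Plau, the plasminogen activator urokinase, differed by 0.91 and Stab1, a scavenger receptor, by 0.87, with the endocytic adaptors Epn2 and Epn1 at -0.10 and -0.041. Of 12 class 3 semaphorins and plexins, the competing ligands of neuropilins and their partner receptors, 8 were tested, 2 of them higher (Sema3f and Plxna4) beside the same 29.5%, with a median of 0.21. Sema3f, which binds Nrp2, was at 2.40 to 2.56 FPKM in sham-operated mice and at 6.20, 2.33 and 5.87 in MI mice (0.66). Plxna4 followed at 0.43, and Plxnd1 and Plxna2 were at 0.088 and 0.013.

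Of 16 genes known to be induced by VEGF-A in endothelium, 12 were tested, 4 were higher (Angpt2, Plvap, Cxcr4 and Rcan1) and 0 lower at an unadjusted p under 0.05, beside 29.5% and 9.85% of all genes, and the median was 0.50. Relative to all genes that median was 0.29, and it was 0.58 without MI replicate 2, 0.19 without MI replicate 1 and 0.10 without MI replicate 3. Plvap, which forms the diaphragms of fenestrated and immature capillaries, was at 3.43 to 4.41 FPKM in sham-operated mice and at 58.5, 4.80 and 46.9 in MI mice (log2 fold change 2.41, limma adjusted p = 0.108). At the low end of this list Nr4a1, an early response gene, was at -0.44 and Apln, a ligand of sprouting endothelium, at -0.15, with overlapping groups for both.

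**Figure D5:**
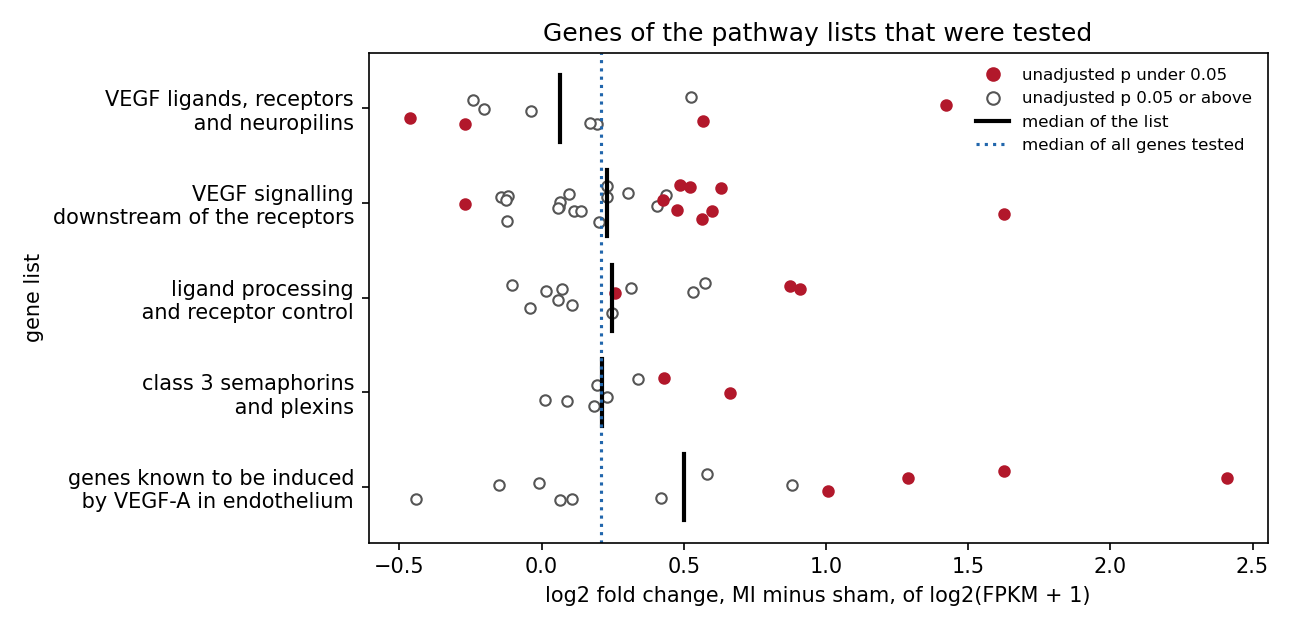
Log2 fold change of MI over sham-operated mice (horizontal axis) for each tested gene of the 10 VEGF genes and the 4 pathway lists (vertical axis), filled where the unadjusted limma p was under 0.05, with list medians as bars and the median of all genes, 0.21, as a dotted line. The list of VEGF-A-induced genes has the highest median, 0.50, and Plvap, at 2.41, the highest value.

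The genes whose deviations from the sham mean were most like those of a VEGF gene were named for Vegfc, Vegfd and Flt4, whose log2 values spanned more than 1 over the 7 mice. For Vegfd they were the inhibitory Fc receptor gene Fcgr2b, at a root mean square log2 difference of 0.062, Pirb (0.079) and the proteoglycan gene Dcn (0.081). Fcgr2b was at 1.28 to 1.64 FPKM in sham-operated mice and at 9.88, 2.29 and 8.22 in MI mice. For Vegfc they were Arf6 (0.030), Hlx (0.064) and Mydgf (0.066), all lowest in MI replicate 2. For Flt4 they were St3gal1 (0.049), Nfil3 (0.055) and Hyou1 (0.064). With 7 mice such likeness is a description of these libraries.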

How the data were processed

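One library per mouse was sequenced from myocardial tissue of 4 sham-operated and 3 MI mice, grouped by their labels. The authors deposited FPKM values for 56980 genes. The submitters' processing notes name CASAVA 1.8, HISAT2, SAMtools 1.3.1 and edgeR, with the mm10 build, and the gene lengths behind the FPKM are not given in the sources used here. Gene identifiers were joined to GENCODE M21 (GRCm38), which held 52125. Whole fragments were recovered from the FPKM steps for 30496 of 30504 genes above 0 (tolerance 0.05) and served for depths and for voom. Genes that reached an FPKM of 1 in 3 or more mice were tested on log2(FPKM + 1) with limma 3.58.1 in R 4.3.3 (eBayes with trend), with Benjamini-Hochberg adjustment over all 11431. Fold changes are on that scale, which understates changes of low genes. Single genes and 13 within-mouse differences had exact two-sided permutation tests over 35 splits. The fit and the recovery were tested on simulated data. The members, lists and named-gene rule (all 10 VEGF genes, the 2 highest and 2 lowest changes of each list, and the 3 genes most like a member spanning over 1) were chosen with earlier results of these data known. Genes named outside that rule were chosen after their values were seen. Limma p-values set the difference between groups against the variation among these mice, moderated over all genes. Exact p-values place the observed grouping among all splits. Other steps ran in Python 3.11.15 with SciPy 1.17.1, NumPy 2.4.6 and pandas 2.3.3, and figures were drawn with matplotlib 3.10.9.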

Additional observations from a re-analysis of the deposited data

Results flagged for a closer look

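Of the 35 sets of sham values tested for a single distant mouse, 2 passed Dixon's 95% limit, where chance passes about 1 in 20, or 1.75 of 35. For the Vegfd minus Vegfc log2 difference the ratio of gap to range was 0.895, since sham replicate 1 was at -1.01 and the other sham-operated mice were between -0.82 and -0.79. For the mean log2 deviation of the macrophage markers the ratio was 0.884, since sham replicate 3 was at -0.17 and the others were between 0.047 and 0.076.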

How the results depend on the processing

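Vegfa, Vegfb, Vegfc, Vegfd, Pgf, Kdr, Flt4 and Nrp1 kept the direction of their change under all 18 alternatives, but some came close to 0: under TPM Vegfa was -0.079 (SE 0.14), Kdr -0.012 (SE 0.14) and Nrp1 -0.061 (SE 0.17), and under quantile normalization Pgf was 0.0032 (SE 0.10). Median log-ratio scaling moved some further from 0, with Vegfa at -0.54, Vegfb at -0.73, Kdr at -0.46 and Nrp1 at -0.49. At a pseudocount of 0.1, Vegfd minus fibroblast markers shrank from -1.04 to -0.42. Flt1 reversed to 0.15 under TPM and to 0.0053 with the replicate block, and ranged from -0.17 to 0.048 with a mouse left out. Nrp2 reversed to -0.10 under quantile normalization and -0.072 under median log-ratio scaling, and Vegfb minus cardiomyocyte markers to -0.19 under quantile normalization. The genes called by limma at an adjusted p under 0.05 numbered 3, against 6 at a pseudocount of 0.1, 21 with no filter, 15 under quantile normalization, 14 with mitochondrial genes left out and 15 under median log-ratio scaling. The filter on the mean gave 0 (4740 at an unadjusted p under 0.05) and the replicate block 0 (2332). Sample weights gave 9952, with a weight of 436.7 on MI replicate 3 against 0.0906 and 0.0217 on the other MI mice, so that fit rests on that mouse. With a mouse left out the number ran from 0 to 8195, the latter without MI replicate 2.

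The adjusted threshold was passed by 0 of the 10 VEGF genes in the higher and 0 in the lower direction by limma (2 and 2 at an unadjusted p). Sample weights gave 5 and 4, where 9952 of all genes passed. Leaving out a mouse gave 0 to 4 and 0 to 2, the most without MI replicate 2, where 8195 of all genes passed. At an unadjusted p, those higher numbered 5 with sample weights, beside 67.1% of all genes, and 1 to 5 with a mouse left out. The 5 were without MI replicate 2, beside 58.8% of all genes, against 8.33% to 17.5% without any other mouse. Those lower numbered 4 with no filter (beside 4.77% of all genes), under quantile normalization (21%), with mitochondrial genes left out (12.9%) and under median log-ratio scaling (19.6%). They numbered 5 with sample weights (20.4%), 0 under TPM (4.9%), 0 with the replicate block (4.92%) and 1 to 2 with a mouse left out (4.68% to 15.5%). Genes with every MI mouse above numbered 1 (Vegfd) under TPM, with mitochondrial genes left out and under median log-ratio scaling, beside 16.5%, 19.7% and 13.7% of all genes, and 2 to 5 with a mouse left out, the 5 being without MI replicate 2, where 61.9% of all genes did so. Genes with every MI mouse below numbered 1 under TPM (Vegfb), beside 5.57% of all genes, and 2 to 3 with a mouse left out, beside 9.94% to 16.9%. They numbered 3 (Vegfa, Kdr and Nrp1) with mitochondrial genes left out, beside 8.57%, and under median log-ratio scaling, beside 13.5%. The medians of the pathway lists relative to all genes moved by less than the spread over MI mice, though those of VEGF signalling (0.019), of ligand processing (0.037) and of semaphorins (0.0027) changed sign under some alternatives, with lowest values of -0.015, -0.0021 and -0.047.

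Mice share replicate numbers across the groups, but correlations of same-numbered mice were 0.0739, -0.0163 and -0.0802, so the numbers were not taken to pair the mice. With 3 MI mice, exact tests cannot go below p = 0.0571, and 33 to 44 fragments limit the precision of Vegfd in sham-operated mice.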
